A study of Mus musculus with 8 samples.

Results

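Deubiquitinase genes were compared between the brains of db/db mice on a ketogenic diet and on a normal diet. The genes were taken by symbol: every row whose name begins with Usp and a digit, Otud or Uchl, and Otub1, Otub2 and Bap1. These were 63 of 17983 rows, of which 49 carry a Usp name, 9 are of the OTU family and 5 of the UCH family. One of them, Usp6nl, is by background a Rab GTPase-activating protein and not a protease, and it is kept because its name fits the rule.

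All 8 libraries came from male mice homozygous for the db mutation of the leptin receptor, which makes them obese and diabetic. The control group had 4 libraries from mice on normal diet and the ketogenic group 4 from mice on a ketogenic diet, a kind of diet low in carbohydrate and high in fat. The series description puts the start of feeding at 9 weeks and the sampling of whole brains at 6 months of age. There was no group without the db mutation, and no label states whether each library is 1 mouse, so p-values measure the spread between these libraries.

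Ubiquitin is attached to proteins by ligases and removed by deubiquitinases, which cut the bond after its last residue. Ubiquitin-specific proteases (USP), ovarian tumour proteases (OTU) and ubiquitin C-terminal hydrolases (UCH) are cysteine proteases. Some work at the proteasome and recycle ubiquitin before a substrate is degraded, others rescue receptors from the lysosome, trim histones or end signals. In neurons this balance is known to matter for synapses, where receptors and scaffolds turn over.

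Total counts were 34450860 to 38738800 in the control libraries and 38163795 to 40233361 in the ketogenic libraries. On the first principal component, with 22.9% of the variance, ketogenic replicate 3 lay at 34.4 and the other ketogenic libraries at 2.90 to 11.2. The control libraries lay at -22.7 to -5.94, so the diets did not overlap on it. The neuron markers summed to 11264 to 12273 CPM (the standard rate of counts relative to the library total, here TMM-scaled) in control and 10607 to 12315 in ketogenic samples, with 0 of 12 past the threshold. The 10 erythrocyte markers summed to 84.6 to 120 CPM in control and 138 to 197 in ketogenic libraries, without overlap. Of the 7 that were tested 4 were higher (57.1%), against 3.3% of all tested genes. Epb42 and Ahsp were among the markers at 0 in at least 1 library. Of 10 astrocyte markers 4 were lower and 1 higher, together 50% of the list against 6.52% of all tested genes. Aqp4, among the lower, went from 130 ± 4.77 to 89.6 ± 9.22 CPM. Fgfr3, the higher one, went from 80.0 ± 7.02 to 101 ± 8.81 CPM. The sums of the 10 astrocyte markers overlapped, at 4934 to 5777 and 4810 to 5448 CPM. Slc1a2, which did not pass, held the largest part of these sums, at 2808 ± 244 CPM in control libraries. Of 10 choroid plexus and ependyma markers 0 passed, but 8 had a log2 change above 0, and the list's median was 0.30. Ttr, which held most of their sum, went from 833 ± 216 to 1141 ± 124 CPM (edgeR adjusted p = 0.0621). The sums of these markers (607 to 1159 and 1091 to 1388 CPM) also overlapped. So did those of oligodendrocytes (5502 to 5807 and 5106 to 6739 CPM, 2 of 10 lower), microglia (387 to 431 and 394 to 489 CPM, 1 of 10 higher) and endothelium (235 to 288 and 248 to 279 CPM, 1 of 10 higher). The part of these cells in the results was not tested, and in bulk tissue fewer cells of a type and less RNA per cell cannot be told apart.

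Most deubiquitinase genes differed little between the diets. The endoplasmic reticulum protease gene Usp19 rose 1.25-fold and the signalling protease gene Usp4 1.15-fold, and the endosomal protease gene Usp8 fell 1.22-fold and the nuclear protease gene Usp42 1.26-fold. Those 4 were all that passed of 62 tested members, 2 higher and 2 lower. A gene passed at a Benjamini-Hochberg adjusted p under 0.05 in edgeR's quasi-likelihood test over all 14895 tested genes. The members' share was 6.45%, where 6.52% of all tested genes passed, 3.3% higher and 3.22% lower, so the count is at the background. The members' median log2 change was 0.01 and that of all tested genes -0.00, and the median size was 0.09 against 0.13. The 63 members also had a higher median level, 9.38 against 5.97 fragments per kilobase of gene length (FPKM, scaled to library total). Whether that level bears on the smaller median size was not tested.

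RefSeq promoter windows (GRCm38.p6, 250 bases before to 50 after the start, plus strand) are shown for Usp19, Usp4 and Usp8, so that the start regions of genes that rose and fell can be set side by side. For Usp19 the first bases of the window lie in the neighbouring gene Lamb2, and 195 bases after its end are shown. Usp42 is named only. Capitals mark motifs searched on both strands, namely the GC box GGGCGG, the E-box CACGTG, the ETS motif CCGGAAG, the cyclic AMP element TGACGTCA and the CCAAT box. No match overlapped another in these windows. Usp19 lies at chr9:108490531-108490725, Usp4 at chr9:108347581-108347880 and Usp8 at chr2:126707078-126707377.
Usp19: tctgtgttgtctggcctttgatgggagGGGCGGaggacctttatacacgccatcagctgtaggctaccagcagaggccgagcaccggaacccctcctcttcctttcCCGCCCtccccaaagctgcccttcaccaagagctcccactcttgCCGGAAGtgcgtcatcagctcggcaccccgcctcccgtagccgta
Usp4: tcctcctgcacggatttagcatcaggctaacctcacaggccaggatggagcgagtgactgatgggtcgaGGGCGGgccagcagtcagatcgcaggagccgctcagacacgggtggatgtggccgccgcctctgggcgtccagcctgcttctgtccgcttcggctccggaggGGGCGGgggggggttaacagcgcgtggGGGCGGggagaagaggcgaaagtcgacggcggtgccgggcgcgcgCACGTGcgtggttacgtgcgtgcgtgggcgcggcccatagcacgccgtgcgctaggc
Usp8: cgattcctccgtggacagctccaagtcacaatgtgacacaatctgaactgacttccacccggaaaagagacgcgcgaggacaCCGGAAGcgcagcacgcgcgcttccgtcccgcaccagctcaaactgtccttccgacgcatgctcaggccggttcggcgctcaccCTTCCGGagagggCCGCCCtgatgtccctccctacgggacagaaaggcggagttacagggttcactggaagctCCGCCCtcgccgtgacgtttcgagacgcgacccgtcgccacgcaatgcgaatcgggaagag
The window of Usp19 held 2 GC boxes and 1 ETS motif, that of Usp4 3 GC boxes and 1 E-box, and that of Usp8 2 GC boxes and 2 ETS motifs. None held the cyclic AMP element or the CCAAT box. Among 11800 promoter windows of 300 bases of tested genes, 62.5% held a GC box, 9.68% an E-box, 16.2% the ETS motif, 3.08% the cyclic AMP element and 38.3% a CCAAT box. Of the 49 tested members with a window, 35 held a GC box (71.4%), 8 an E-box, 9 the ETS motif, 2 the cyclic AMP element and 10 a CCAAT box (20.4%). These are matches of letters and not measured sites, and the rising and falling genes share the GC box and, in Usp19 and Usp8, the ETS motif.

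Usp19 is anchored in the endoplasmic reticulum membrane and takes part in the disposal of misfolded proteins. It read 81.3, 86.9, 86.9 and 89.6 CPM in control replicates 1 to 4 and 104, 108, 108 and 112 CPM in ketogenic replicates 1 to 4. Every ketogenic library was above every control library. On the log2 scale it rose by 0.33 ± 0.05 (SE, edgeR adjusted p = 0.00596), and the 95% interval of the fold was 1.16 to 1.35. The gene (ENSMUSG00000006676.16) lies at chr9:108490602-108502337, GRCm38, plus strand. The call held with each single library left out, with an adjusted p of up to 0.0288. It was lost without ketogenic replicates 3 and 4 together (adjusted p = 0.0541), the only one of 21 alternatives in which it was, over an adjusted p range of 2.12e-06 to 0.0541.

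Usp8 acts on endosomes, where it removes ubiquitin from receptors and from the sorting complex that would send them to lysosomes. It read 116, 116, 108 and 105 CPM in control libraries and 90.2, 86.6, 90.8 and 96.4 CPM in ketogenic libraries. The groups did not overlap, with control replicates 3 and 4 the lower controls and ketogenic replicate 4 the highest ketogenic library. The log2 change was -0.29 ± 0.06 (SE, edgeR adjusted p = 0.0116), with a fold interval of 0.752 to 0.887. The gene (ENSMUSG00000027363.15) lies at chr2:126707328-126759297 and overlaps Usp50 on the opposite strand. Usp50 was at 0.03 to 0.41 CPM in every library, and whether the counting used strand is not known. Usp8 passed with each library left out (up to 0.0482) and without ketogenic replicates 3 and 4 (0.0456), and its adjusted p ran from 0.000132 to 0.0569 over the 21 alternatives.

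Usp42 removes ubiquitin from histones and from p53 in the nucleus. It read 34.9, 34.6, 33.6 and 33.6 CPM in control and 28.5, 27.0, 26.7 and 26.0 CPM in ketogenic libraries. The groups did not overlap, and every control library was well above ketogenic replicate 1, the highest of its group. The log2 change was -0.34 ± 0.07 (SE, edgeR adjusted p = 0.0123), with a fold interval of 0.719 to 0.872. The gene (ENSMUSG00000051306.7) lies at chr5:143710325-143732280 on the minus strand. It passed with each library left out (up to 0.0451). Without ketogenic replicates 3 and 4 its adjusted p was 0.118, the highest in a range of 0.000209 to 0.118 over 21 alternatives.

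Usp4, a regulator of growth factor and inflammatory signalling, read 87.6, 89.4, 84.6 and 94.3 CPM in control and 103, 103, 104 and 99.9 CPM in ketogenic libraries. All ketogenic values exceeded all control values, with control replicate 4 and ketogenic replicate 4 the closest. The log2 change was 0.20 ± 0.05 (SE, edgeR adjusted p = 0.035), with a fold interval of 1.06 to 1.24. This call was lost when any one of control replicates 1, 2 or 3 or any ketogenic library was left out, 7 of 8 libraries, with an adjusted p of up to 0.101, and also after removing a trend in GC content and length (0.077). Over the 21 alternatives the adjusted p ran from 0.00608 to 0.144. The gene (ENSMUSG00000032612.14) lies at chr9:108347853-108392545, plus strand, and overlaps the processed pseudogene Rps2-ps11 on the opposite strand.

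**Figure D1:**
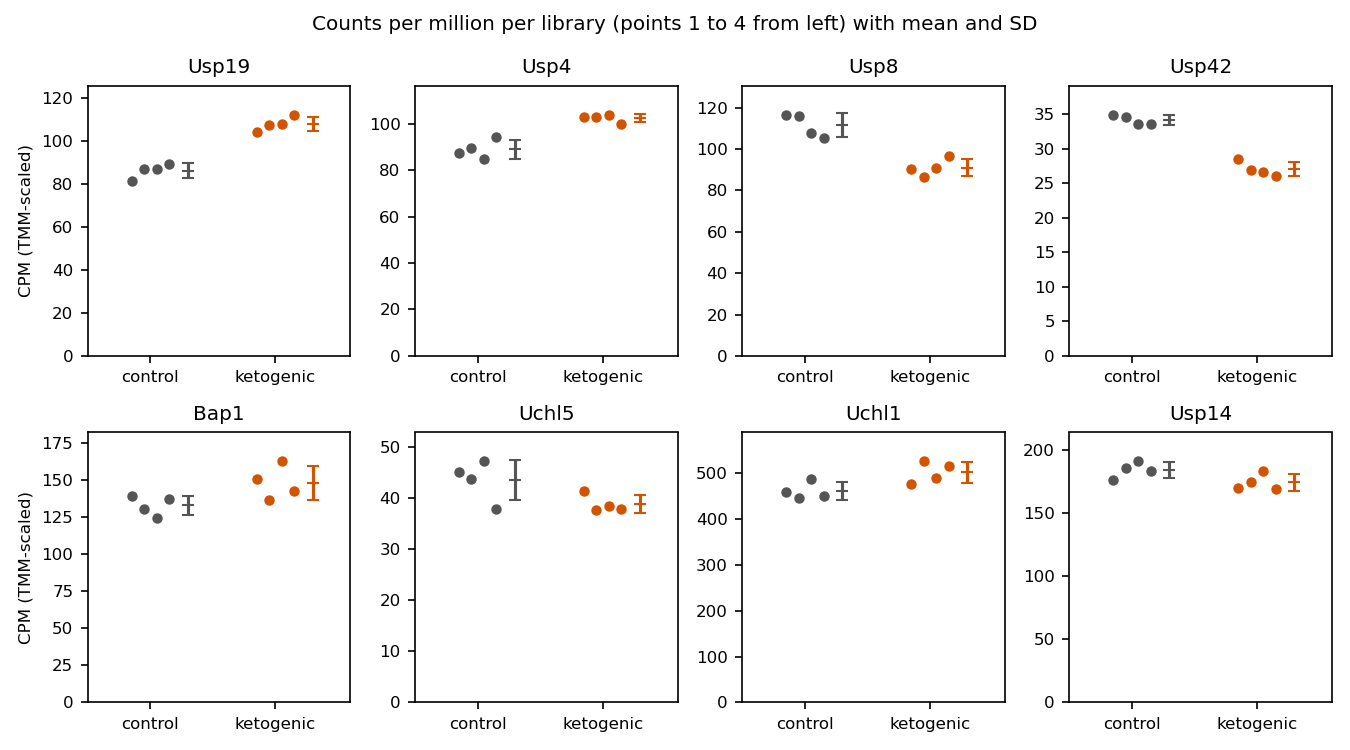
CPM, TMM-scaled (y axis, starting at 0), in each of 4 control and 4 ketogenic libraries (points), with the mean and SD beside them, for 8 deubiquitinase genes. Usp19 and Usp4 lie higher and Usp8 and Usp42 lower in all ketogenic libraries, while the groups overlap for Bap1, Uchl5, Uchl1 and Usp14.

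Both genes that rose lie on chromosome 9, their starts 142749 bases apart. Within 500000 bases to either side of the pair 40 other genes were tested, of which 2 were higher and 1 lower (7.5%), a share near the background. Their median log2 change was 0.12, against -0.00 over all tested genes, so most of these neighbours leaned the same way as Usp4 and Usp19. The reason was not tested. Past the threshold were the higher Ip6k1 and Ip6k2, inositol phosphate kinase genes, and the lower Rhoa, which encodes a small GTPase of the cytoskeleton. Those names were chosen after their values were seen. Of 4 tested genes that lie wholly between Usp4 and Usp19 none passed. Lamb2, which ends 72 bases before Usp19 on the same strand, went from 23.1 ± 1.76 to 26.0 ± 1.04 CPM and did not pass (edgeR adjusted p = 0.198).

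**Figure D2:**
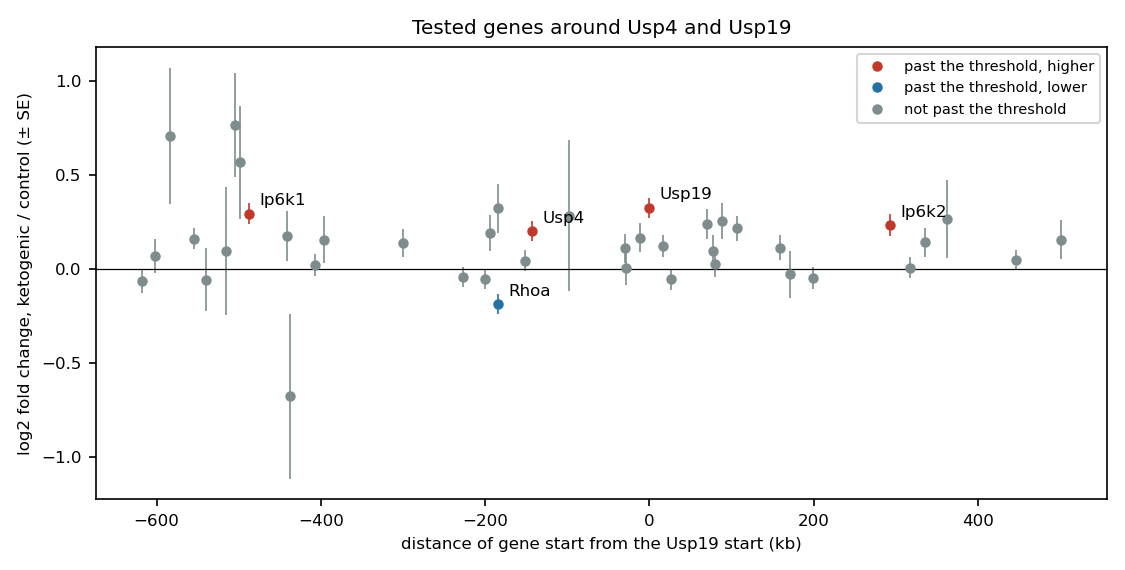
Log2 fold change (y axis, ± SE) of tested genes against the distance of their start from the Usp19 start in kilobases (x axis). Colours mark genes past the threshold. Usp4 and Usp19 are among 4 higher genes in the window. Neighbours lie on both sides of 0 but mostly above it, with a median of 0.12 for the 40 others.

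The proteases of the proteasome and of ubiquitin recycling did not pass. Usp14 and Uchl5 bind the regulatory particle and trim chains from substrates about to be degraded. Usp14 read 176, 186, 191 and 183 CPM in control and 170, 175, 183 and 169 CPM in ketogenic libraries, which overlap. Its log2 change was -0.08 ± 0.05 (SE, edgeR adjusted p = 0.372), with a fold interval of 0.880 to 1.02. Uchl5 read 45.2, 43.8, 47.2 and 37.9 CPM in control and 41.4, 37.8, 38.5 and 37.9 CPM in ketogenic libraries. The 3 higher controls stood above all ketogenic libraries and control replicate 4 sat among them. Its log2 change was -0.16 ± 0.07 (adjusted p = 0.187), and without control replicate 4 it passed (0.0407). Of the 7 members of this group 0 passed, against 6.52% of all tested genes, and their median log2 change was 0.03.

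Usp5, which takes apart free ubiquitin chains, read 213 to 231 CPM in control and 236 to 243 CPM in ketogenic libraries, without overlap. Its log2 change of 0.10 ± 0.05 (SE, edgeR adjusted p = 0.212) did not pass. Uchl1, a neuronal hydrolase that binds single ubiquitin and is among the more abundant brain proteins, read 459, 447, 489 and 451 CPM in control and 477, 526, 490 and 516 CPM in ketogenic libraries. Ketogenic replicates 2, 3 and 4 stood above every control, and ketogenic replicate 1 did not. Its log2 change was 0.12 ± 0.05 (adjusted p = 0.16). Uchl4 had 0.471 to 1.05 CPM in control and 0.959 to 1.23 CPM in ketogenic libraries, and its log2 change of 0.45 ± 0.35 had a fold interval of 0.821 to 2.29. Uchl4 is a near copy of Uchl3, so reads could be split between them. With the use of strand not known, reads also cannot be told apart where Usp14 overlaps Thoc1 and Uchl1 overlaps its antisense gene Uchl1os.

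The histone and chromatin proteases had 1 of 12 tested members lower, Usp42, and 0 higher (8.33%, against 6.52% of all tested genes). Bap1, a tumour suppressor that takes ubiquitin off histone H2A, read 139, 131, 125 and 138 CPM in control and 151, 136, 163 and 143 CPM in ketogenic libraries. Ketogenic replicate 2 lay below 2 of the controls. Its log2 change was 0.16 ± 0.06 (SE, edgeR adjusted p = 0.129). Usp22, the protease of the SAGA coactivator, read 280 to 305 and 283 to 311 CPM, with a log2 change of 0.01 ± 0.05 and a fold interval of 0.931 to 1.08. Usp46, a partner of the same regulators as Usp12, had a log2 change of -0.04 ± 0.05 and an interval of 0.901 to 1.05.

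In the DNA damage and cell cycle group 0 of 12 passed, against 6.52% of all tested genes. Otub1, which can also block ubiquitin-conjugating enzymes, read 198, 200, 197 and 205 CPM in control and 207, 218, 215 and 214 CPM in ketogenic libraries. The groups did not overlap, yet its log2 change of 0.09 ± 0.05 (SE, edgeR adjusted p = 0.244) did not pass. Usp7, which acts on p53 and its ligase, had a log2 change of 0.01 ± 0.05 and a fold interval of 0.935 to 1.08. Usp11 had -0.00 ± 0.06, but ranged over 196 to 236 CPM among ketogenic libraries.

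In the membrane traffic, mitochondria and endoplasmic reticulum group 1 of 9 was higher (Usp19) and 1 lower (Usp8). That is 22.2% of a short list, against 6.52% of all tested genes. Usp30 sits on the outer mitochondrial membrane and counters the removal of mitochondria, and its gene overlaps Svop and Alkbh2 on the opposite strand. Its log2 change was 0.07 ± 0.07 (SE, edgeR adjusted p = 0.601). Usp2, which has a daily rhythm in many tissues, had -0.10 ± 0.08 (0.49).

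In the signalling and immune group 1 of 18 passed, Usp4 (5.56%, against 6.52% of all tested genes). Usp9x, a large X-linked protease, read 296 to 315 CPM in control and 285 to 311 CPM in ketogenic libraries, with a log2 change of -0.04 ± 0.05 and a fold interval of 0.906 to 1.05. Otud1, an OTU protease of antiviral signalling, read 24.6, 22.4, 20.0 and 24.1 CPM in control and 19.6, 19.1, 19.2 and 16.2 CPM in ketogenic libraries. The groups did not overlap, and its log2 change of -0.30 ± 0.09 (SE, edgeR adjusted p = 0.0593) did not pass, though it passed with the DESeq2 Wald test (0.0268). Usp50 had the largest fitted value, 0.64 ± 0.60, on 1 to 16 reads per library.

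**Figure D3:**
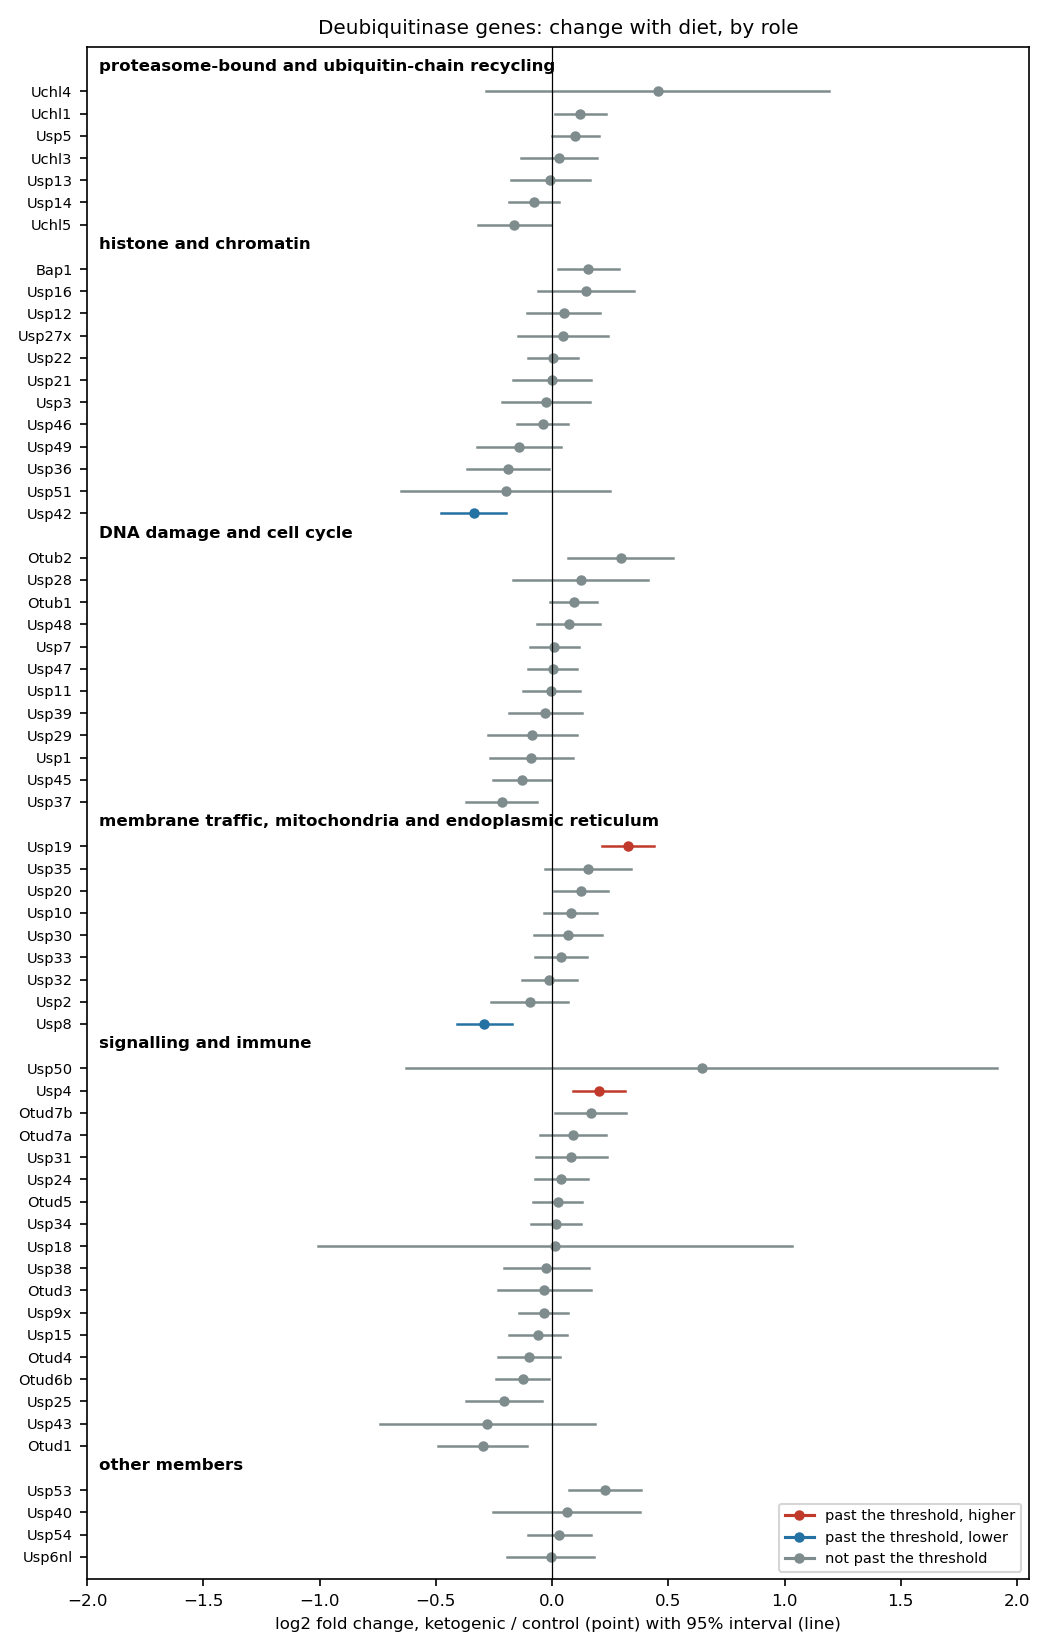
Log2 fold change, ketogenic over control (x axis), with its 95% interval (line) for the 62 tested genes, grouped by role. Usp19 and Usp4 (red) and Usp8 and Usp42 (blue) are past the threshold, and most other points lie near 0 with intervals that cross it.

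The 95% interval of the fold lay within 1.1-fold either way for 7 of the 62 tested members, within 1.2-fold for 37 and within 1.5-fold for 57. At an unadjusted p under 0.05 there were 17 members, 8 higher and 9 lower, which is 27.4%, against 24.6% of all tested genes. The libraries of the 2 diets were fully apart for 12 members (19.4%), 6 higher and 6 lower, against 13.7% of all tested genes. Of those 12, 4 passed, and the other 8 were Otub1, Usp5, Usp20, Usp45, Usp25, Otud1, Usp53 and Usp37. Usp53 had a log2 change of 0.23 ± 0.07 (edgeR adjusted p = 0.0708) and Usp37 of -0.22 ± 0.07 (0.08), and both passed in the DESeq2 Wald test.

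Levels were compared between members per length, as FPKM (fragments per kilobase of gene length, scaled to library total). Uchl1 had the highest level, at 402 ± 14.6 FPKM in control libraries and 439 ± 27.7 in ketogenic libraries. Otub1, the next, was at 119 ± 3.15 and 127 ± 4.44. Usp5, Usp22 and Usp11 followed at means over all libraries of 69.4, 66.2 and 62.1 FPKM and were neighbours in the order. In control libraries Usp5 (66.9 ± 2.78) and Usp22 (66.0 ± 3.03) did not differ beyond their SDs. In ketogenic libraries Usp5 (72.0 ± 1.34) lay above Usp22 (66.5 ± 3.90) by just more than their summed SDs. Whether their order differs by diet was not tested, and neither gene passed (edgeR adjusted p = 0.212 for Usp5 and 0.967 for Usp22). Usp11 was at 62.1 ± 1.91 in control and 62.2 ± 5.76 in ketogenic libraries, in both within the summed SDs of Usp22. Bap1 and Usp14 both had a mean of 40.2 FPKM over all libraries, but in control libraries Bap1 was the lower (38.0 ± 1.95 against 41.2 ± 1.53) and in ketogenic libraries the higher (42.4 ± 2.35 against 39.1 ± 0.944), each time within the summed SDs. A mean of at least 10 FPKM was reached by 31 members, and 7 lay below 1 FPKM.

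At the low end, Usp44 had 1 read in all libraries together and was not tested. Usp18, which cleaves the ubiquitin-like Isg15, was at 0.281 FPKM and Usp50 at 0.165 FPKM. Otud7a stood at 0.865 FPKM although it read 58.1 to 69.8 CPM, since the length implied by the deposited values is 71885 bases. The median implied length was 5282 bases for the 59 members with at least 1 CPM and 3785 for all such genes. Across those members, Spearman's rho between length and log2 change was -0.07, and across 13521 genes it was -0.15. Genes are not independent replicates and share libraries.

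**Figure D4:**
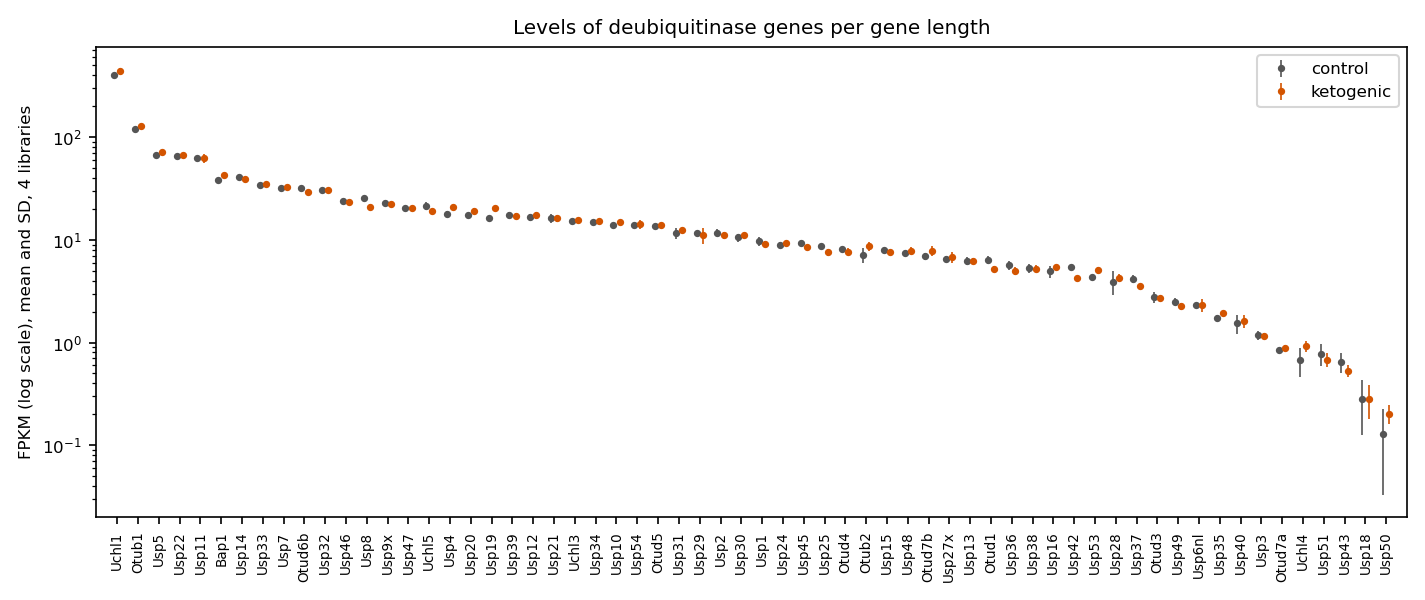
FPKM (y axis, log scale) of each deubiquitinase gene in control and ketogenic libraries, mean with SD over 4 libraries, ordered by the mean over all libraries. Genes under 0.1 FPKM are left out. Uchl1 stands highest, at a mean of 420 FPKM, and Usp18 and Usp50 below 1, and the diets lie close together for nearly every gene.

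Summed over the 63 members the libraries held 5255, 5283, 5325 and 5385 CPM in control and 5394, 5404, 5404 and 5352 CPM in ketogenic samples. Ketogenic replicate 4 lay between control replicates 3 and 4.

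Related genes were compared by the ratio of their CPM within a library, on the log2(CPM + 0.1) scale. Of 26 listed pairs of relatives, 23 had both genes tested, and 2 reached the exact two-sided permutation p of 0.029, the smallest that 70 assignments allow. Both involved Usp4. The ratio of Usp4 to Usp15, a close relative, went from -0.09 ± 0.07 in control to 0.17 ± 0.06 in ketogenic libraries (SD, n = 4 each, exact permutation p = 0.029, adjusted p = 0.263 over 23 pairs). Usp15 itself had a log2 change of -0.06 ± 0.06. The ratio of Usp4 to Usp11 changed by 0.21 with the same exact p. Neither passed after adjustment over 23 pairs. A pair at this smallest exact p could pass only if many of the 23 pairs reached it, so the adjusted values do not decide whether these ratios changed. Uchl5 over Bap1, both UCH proteases, fell by 0.31 on the log2 scale (exact permutation p = 0.0571, adjusted p = 0.263). Uchl3 over Uchl4 fell by 0.42, the largest change of the 23, with Uchl4 at 0.778 CPM in control libraries. Usp16 over Usp45 rose by 0.28. Both of these pairs had the same exact and adjusted p as Uchl5 over Bap1. Leaving out control replicate 1 left 1 pair at an exact p under 0.05, and leaving out control replicate 4 gave 5.

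**Figure D5:**
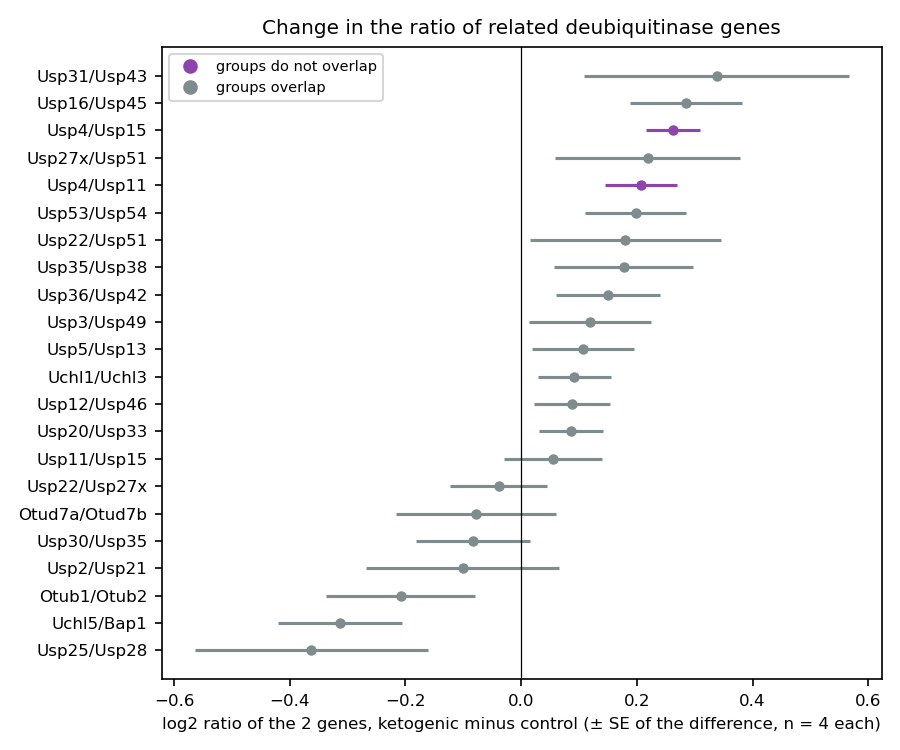
Change in the log2 ratio of related genes, ketogenic minus control (x axis), with the SE of the difference from 4 libraries per group, for 22 of the 23 pairs. Uchl3/Uchl4, with the largest change (-0.42), is not drawn. Purple points, Usp4/Usp15 and Usp4/Usp11, are pairs whose groups do not overlap.

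Other genes of the pathway moved in few cases. Of 36 further genes of deubiquitinase and ubiquitin-like protease families 1 rose and 1 fell, 5.56% of the list against 6.52% of all tested genes. The list's median log2 change was -0.02 against -0.00. Eif3f, a translation factor subunit, went from 112 ± 7.03 to 134 ± 9.14 CPM (edgeR adjusted p = 0.0279). Mindy2, which trims long chains, went from 105 ± 3.68 to 90.6 ± 2.15 CPM (0.0243). Psmd14, the metalloprotease of the proteasome lid, went from 68.1 ± 2.72 to 73.9 ± 3.49 CPM, which did not pass (0.219).

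Of 29 partner genes of deubiquitinases 1 rose and 1 fell (6.9%), with a median log2 change of 0.00. Adrm1, the proteasome receptor that recruits and activates Uchl5, went from 59.6 ± 4.27 to 69.6 ± 2.57 CPM (edgeR adjusted p = 0.0453). Its call was lost without any one library except control replicate 4 (up to 0.144). Babam2, a subunit of a complex that cuts one kind of chain, went from 57.2 ± 1.46 to 49.1 ± 2.06 CPM (0.0362), and passed only without control replicate 4 or ketogenic replicate 3 among the single libraries left out.

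Of 14 genes for ubiquitin and ubiquitin-like proteins 3 rose and 0 fell. That is 21.4% of a short list, against 3.3% of all tested genes higher, and the list's median log2 change was 0.00. Among those that rose, Rps27a and Fau encode ribosomal fusions, whose product is cut by deubiquitinases into a ubiquitin or ubiquitin-like part and a ribosomal protein. Rps27a read 52.5, 57.7, 60.1 and 51.0 CPM in control and 65.5, 79.6, 118 and 71.4 CPM in ketogenic libraries, and rose by 0.60 ± 0.13 on the log2 scale (SE, edgeR adjusted p = 0.0208). The groups did not overlap, and ketogenic replicate 3 was far above the others. Without ketogenic replicate 3 its log2 change was 0.39 (0.0155). Fau was 1.23-fold higher (0.0157). The polyubiquitin gene Ubb, which carries no ribosomal part, had a log2 change of 0.07 ± 0.05 (0.373). After removing the trend in GC content and length the Fau call was lost, with a log2 change of 0.13 in place of 0.30 (adjusted p = 0.309), and Rps27a passed (0.0337). Eif3f and Mindy2 each missed the threshold when control replicate 1, control replicate 2 or ketogenic replicate 2 was absent, and Mindy2 also when control replicate 3 was. After removing the trend in GC content and length Mindy2 had a log2 change of -0.12 (adjusted p = 0.252), against -0.22 without that correction, and it passed in 12 of 21 alternatives. Without control replicate 2 or ketogenic replicate 2 none of the 7 pathway genes that passed with all libraries did so, and without control replicate 4 there were 11 genes of the lists past the threshold. Over the alternatives the highest adjusted p was 0.103 for Rps27a and 0.309 for Fau.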

How the data were processed

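The authors deposited raw counts per gene symbol and FPKM values for 8 brain libraries. The submitters' processing notes name GRCm38 and mm10. Which aligner, counter, annotation and strand setting made the counts is not given in the sources used here. Per the labels' protocols, a SMARTER mRNA library was made from 1.3 ug of total RNA. The deposited FPKM values equal count divided by length and total.

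Counts were fitted with edgeR 4.0.16 (R 4.3.3): TMM scaling, its low-count filter (14895 genes kept, 3088 not), a quasi-likelihood F test of diet, and Benjamini-Hochberg adjustment. SE is the log2 change divided by the square root of F. Alternatives used DESeq2 1.42.0, limma 3.58.1, other scalings and filters, trends removed by loess (span 0.3), a replicate block and left-out libraries. GC content, from GENCODE M21 transcripts, was known for 98.1% of tested genes.

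The members and lists were chosen with earlier results of these data known. Named members were those past the threshold, the 5 with the largest change, the 5 with the highest FPKM, fixed names, and pairs with the smallest exact p. Named pathway genes were up to 4 per list and direction past the threshold, and a few genes of the lists are not reported here. Coordinates are GENCODE M21 gene bounds. Protein sequences, which the pair comparison was to use for identity, were not used here.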

Additional observations from a re-analysis of the deposited data

Results flagged for a closer look

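In 8 of 124 groups of 4 libraries examined (62 members on 2 diets), 1 library stood far from the other 3, with a gap over range above Dixon's 95% critical value for 4 samples. Chance flags about 1 in 20 groups. Otub2 in ketogenic replicate 3 read 35.9 CPM, against 28 to 29.3 CPM in the other 3 ketogenic libraries. Otud1 in ketogenic replicate 4 read 16.2 CPM, against 19.1 to 19.6 CPM in the other 3 ketogenic libraries. Otud4 in control replicate 4 read 64.2 CPM, against 59.2 to 59.7 CPM in the other 3 control libraries. Otud5 in control replicate 4 read 85.9 CPM, against 89.3 to 90 CPM in the other 3 control libraries. Usp18 in control replicate 1 read 0.912 CPM, against 0.308 to 0.389 CPM in the other 3 control libraries. Usp3 in ketogenic replicate 2 read 20.1 CPM, against 22.3 to 22.7 CPM in the other 3 ketogenic libraries. Usp37 in control replicate 1 read 28.5 CPM, against 32.9 to 33.6 CPM in the other 3 control libraries. Usp9x in control replicate 4 read 315 CPM, against 296 to 298 CPM in the other 3 control libraries. Control replicate 4 is the library concerned for Otud4, Otud5 and Usp9x, and control replicate 1 for Usp18 and Usp37. Usp18 was on 11 to 31 reads per control library. None of the 4 members past the threshold was among them.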

How the results depend on the processing

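Usp19 kept its call in 20 of 21 alternatives, Usp8 in 19, Usp42 in 18 and Usp4 in 10, and all 4 kept their direction in all 21. The number of members past the threshold was 4 with the other scalings and filters, with limma-voom and with both trend corrections (Usp53 in place of Usp4 with GC and length). DESeq2's Wald test gave 7 members, and there was 1 with limma on log2(FPKM + 1) or log2(FPKM + 0.1), 1 without ketogenic replicates 3 and 4, and 3 to 6 with single libraries left out. Over all genes the count was 1774 with the Wald test, 64 and 88 with limma on FPKM, 316 after removing GC and length trends, 90 when ketogenic replicates 3 and 4 were left out, and 146 to 1900 with single libraries left out. Of the pathway lists, where 7 genes passed, it was 13 with the Wald test, 1 with limma on either FPKM scale, 3 with the length trend removed, 1 with GC and length, 0 without ketogenic replicates 3 and 4, and 0 to 11 with single libraries left out. The pairs with the smallest exact p numbered 1 to 5 when a library was left out. The causes of these changes were not tested.

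With a replicate block 4 members and 1528 genes passed. Same-numbered libraries deviated together with correlations of 0.02 to 0.08, so the numbers were not taken as pairs, and of the control libraries only 3 and 4 correlated best with the ketogenic library of their own number. The block changed no call of a member.

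Of 584 values of the named genes under the alternatives 20 had the opposite sign, all in members that did not pass and none past the threshold. With library sizes alone the log2 change was Usp11 0.00328. With the length trend removed it was Usp11 0.00958, Usp9x 0.0104. With GC content as well it was Usp22 -0.00642, Usp11 0.00441, Usp14 0.0609, Usp9x 0.0891, Usp46 0.0615, Usp15 0.0407. When ketogenic replicates 3 and 4 were both left out it was Usp11 0.0755, Usp9x 0.00906. With single libraries left out the values ran over Usp22 -0.0215 to 0.0277, Usp11 -0.054 to 0.0386, Usp7 -0.00785 to 0.0262. The fold intervals given in the report set what this depth and number of libraries could resolve.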
